A study of Homo sapiens with 14 samples.

Results

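Collagen gene expression was followed in the NT2 line, human embryonal carcinoma cells that grow undifferentiated and can be driven toward several cell types. The 44 collagen chain genes were taken as all protein-coding genes whose symbol reads COL, a number, A and a number, after the Ensembl identifiers of the count table were matched to symbols. They are 44 of the 25952 genes in that table. By the usual structural classes, 11 are fibrillar, 9 form networks, 5 form beaded filaments, 10 are FACITs (fibril-associated collagens with interrupted triple helices), 4 are transmembrane, 2 are multiplexins, 1 forms anchoring fibrils and 2 were left unclassed.

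Total RNA was sequenced in 7 groups of 2 libraries. NT2-0 is untreated cells at day 0, RA-5, RA-10 and RA-21 had retinoic acid (RA) for 5, 10 and 21 days, and BMP-5, BMP-10 and BMP-21 had bone morphogenetic protein 2 (BMP2) for the same times. Per the labels, the all-trans form of RA, 10 µM in the medium, was used to obtain neurons, and BMP2, first at 30 ng/ml and then at 40 ng/ml, to obtain muscle cells; the dose behind each library is not given. All groups are the same line with no named transgene or deletion, and the DMSO control that the labels mention was not analysed here. A difference from NT2-0 therefore combines the factor, any solvent and the time in culture. Whether a group's libraries are separate cultures is not stated, so every p-value reflects the spread of these libraries alone, and that spread may be technical.

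Collagens are trimers of alpha chains wound into a triple helix, and each COL gene encodes 1 kind of chain. Fibrillar chains assemble into the banded fibrils of skin, bone, tendon and cartilage, type IV chains form the sheet-like network of basement membranes, type VI chains form beaded microfibrils around cells, and FACITs sit on the surface of fibrils. Chains are hydroxylated and folded in the endoplasmic reticulum, trimmed outside the cell by procollagen proteinases, and crosslinked by lysyl oxidases. Epithelial cells rest on basement membrane, and abundant fibril collagen is a feature of mesenchymal cells.

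Libraries held 45773278 to 75754396 counted reads. Pluripotency genes were high at day 0, with POU5F1 at 1011 and 1006 CPM (a gene's reads scaled to a common library total after TMM normalisation), and low at day 21. A distance index between libraries was computed for all 91 pairs. An index of 1 is the difference that counting alone gives a typical gene if every count is independent. Most small counts were even, as when both mates are counted, so counting alone can give more than 1 here. BMP-5 replicate 2 and BMP-10 replicate 1 were the closest pair after the RA-21 replicates, with an index of 19.6, against 55.7 between the BMP-5 replicates. BMP-10 replicate 2 was closest to BMP-21 replicate 2 (56.4). The correlation of log CPM between replicates was 0.918 in BMP-10 and 0.964 to 0.99 in the other groups. The BMP-10 counts below are therefore given with and without each of these libraries. The RA-5 replicates also differed, with COL3A1 at 114 and 4.73 CPM. Values are listed below as replicate 1 and then replicate 2.

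The share of all counted reads that fell in collagen genes was 0.1006% and 0.0829% in NT2-0. It was 0.259% and 0.157% in RA-5, 0.423% and 0.359% in RA-10, and 1.216% and 1.279% in RA-21. It was 0.862% and 0.632% in BMP-5, 0.5598% and 2.368% in BMP-10, and 3.717% and 3.874% in BMP-21. Every treated library lay above both day 0 libraries, and both BMP-21 libraries lay above all others. With 2 libraries against 2, the smallest p of an exact two-sided permutation test is 0.333, so shares are given without a test. In bulk RNA, a change in the number of cells of a type and a change in RNA per cell cannot be told apart.

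**Figure D1:**
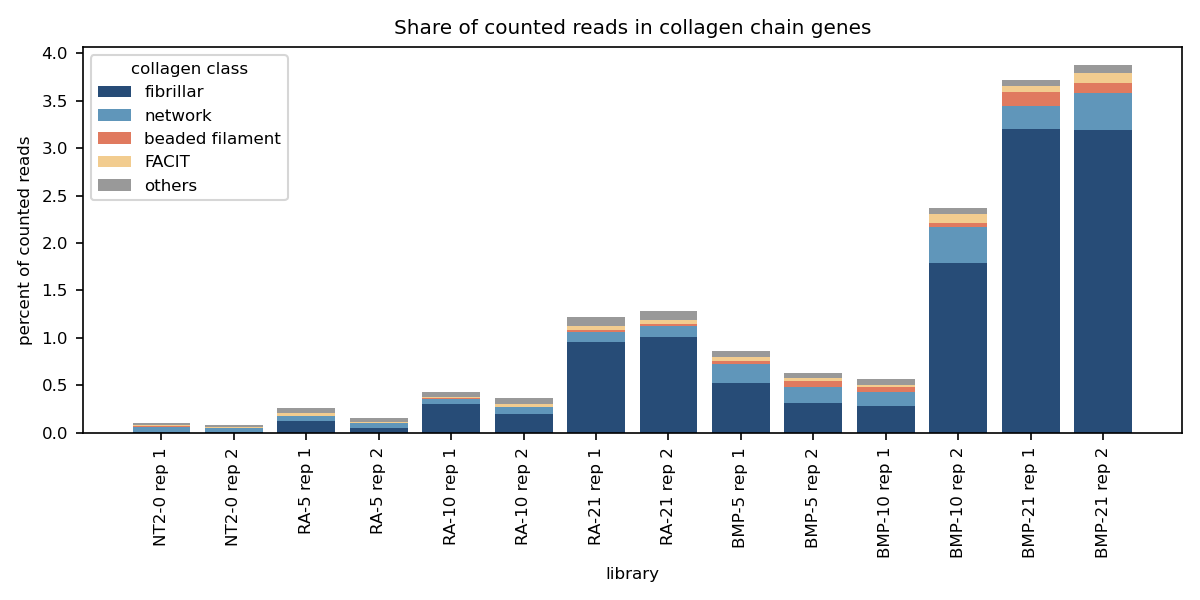
Stacked bars give, for each of the 14 libraries, the percentage of counted reads in collagen genes, split into fibrillar, network, beaded filament, FACIT and other classes. Fibrillar genes held 9.7% and 10.3% of collagen reads in NT2-0 and 82.5% to 86.1% in BMP-21, and BMP-10 replicate 2 stands far above BMP-10 replicate 1.

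The make-up of the collagen reads also differed between groups. COL4A1 and COL4A2, the chains of ordinary basement membrane, held 34.5% and 31.5% of collagen reads in NT2-0, where COL3A1 held 0.3% and 0.0%. In RA-21, COL3A1, the chain of type III collagen of skin and vessel walls, held 47.7% and 44.8% and the COL4A1 and COL4A2 pair held 4.6% and 5.2%. In BMP-21 the figures were 55.1% and 46.3% for COL3A1 and 5.2% and 8.5% for the pair. These shares are of reads and grow with gene length as well as with expression.

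Genes were called changed where the Benjamini-Hochberg adjusted p of edgeR's quasi-likelihood test, over all 19142 genes tested, was under 0.05. COL10A1, the chain of hypertrophic cartilage, was the 1 collagen gene not tested. It lay between 0.0447 and 0.329 CPM in all libraries, and its whole span lies within NT5DC1. Against NT2-0, 7 of the 43 tested collagen genes were higher and 2 lower in RA-5, where 8.31% of all genes were called, 5.59% higher and 2.72% lower. The numbers were 12 and 1 in RA-10 (24% of all genes called) and 21 and 2 in RA-21 (44.6%). For BMP2 they were 27 and 1 in BMP-5 (29.2%), 26 and 1 in BMP-10 (36.3%), and 28 and 3 in BMP-21 (47.1%). In RA-21, 53.5% of collagen genes were called, close to the 44.6% of all genes; 21 of 43 were higher, against 23.4% of all genes, and 2 of 43 lower, against 21.1%. In BMP-21, 28 of 43 were higher, against 25% of all genes. The median log2 fold change of the collagen genes was 1.63 in RA-21 and 3.05 in BMP-21, beside 0.10 and 0.04 for all genes tested.

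These counts moved with single libraries. The RA-5 count of 9 became 3 without either NT2-0 library, 4 without RA-5 replicate 1 or RA-21 replicate 1, 5 without RA-21 replicate 2, and 16 without either or both BMP-10 libraries. The RA-10 count of 13 became 8 and 3 without NT2-0 replicate 1 and 2, and 19 without the BMP-10 libraries. The RA-21 count of 23 became 15 without RA-21 replicate 2, and the BMP-5 count of 28 became 13 without NT2-0 replicate 2. The BMP-10 count of 27 was 27 and 29 without its replicate 1 and its replicate 2, and only 6 when NT2-0 and BMP-10 were fitted alone. The BMP-21 count of 31 ran from 25 to 34 over the 14 fits that each left out 1 library. In the fits that left out 1 library, 3 of the 9 RA-5 calls, 3 of the 13 RA-10 calls, 14 of the 23 RA-21 calls, 11 of the 28 BMP-5 calls, 20 of the 27 BMP-10 calls and 24 of the 31 BMP-21 calls stayed under the threshold throughout. Such calls are termed kept below, and the accounts turn mostly on them.

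**Figure D2:**
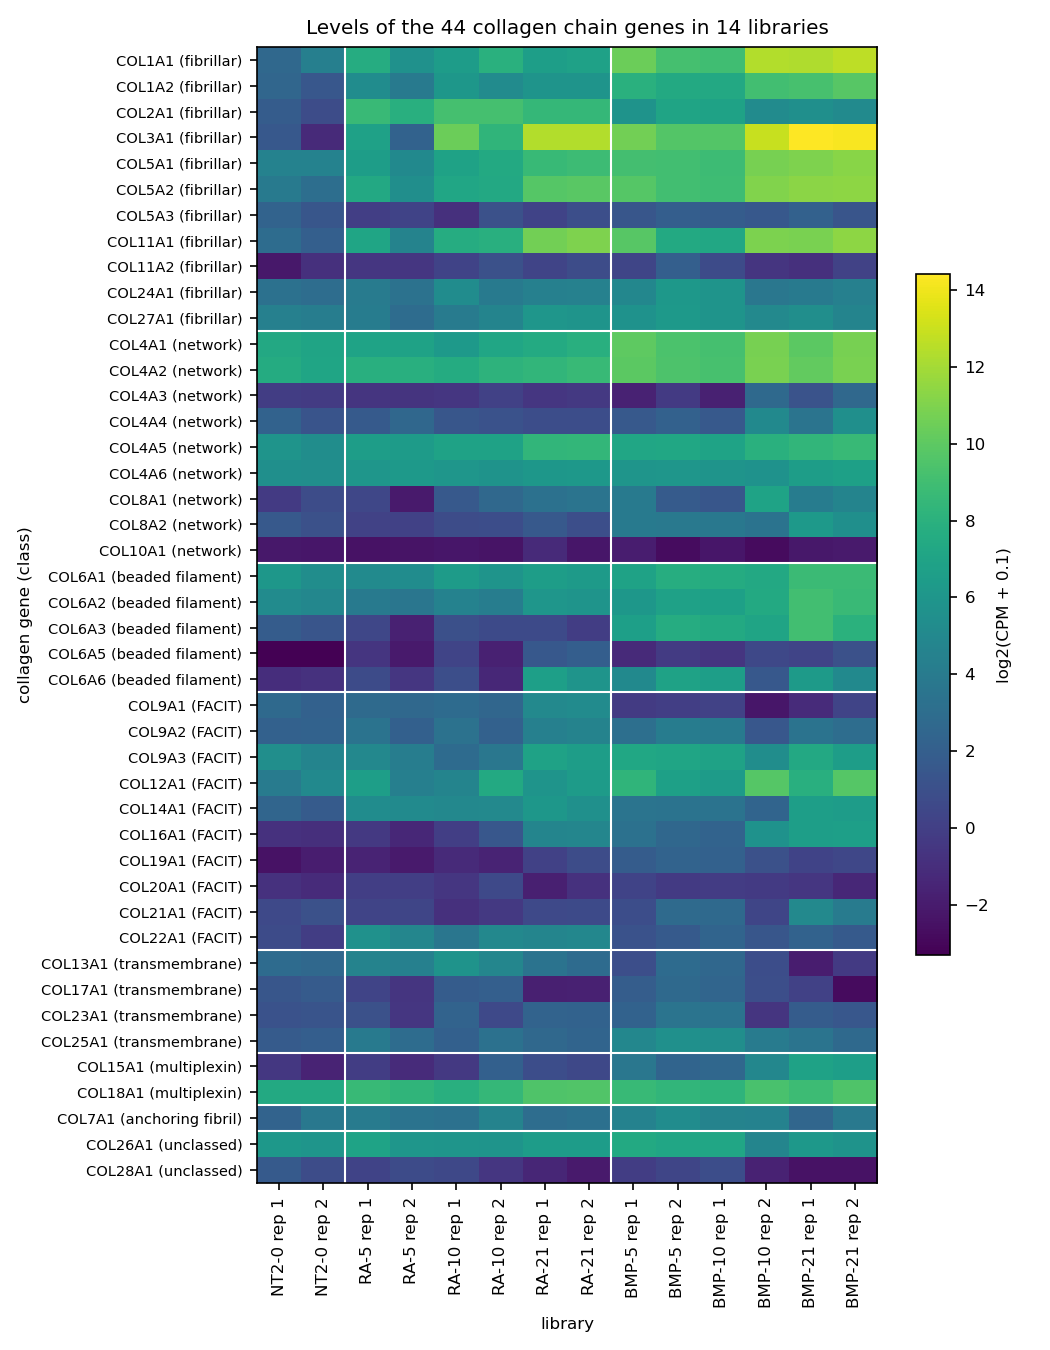
Each row is a collagen gene with its class and each column a library; colour gives log2(CPM + 0.1). The COL3A1 row runs from dark in NT2-0 to its brightest in BMP-21, and the COL28A1 row is darkest in BMP-21.

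Among the fibrillar genes, 9 of 11 were higher in RA-21 and 7 of 11 in BMP-21 than at day 0, and 0 were lower. Over all genes, 23.4% and 25% were higher, and 21.1% and 22.1% lower. Of the fibrillar calls, 6 of the 9 and all 7 were kept. The class median log2 fold change was 3.79 in RA-21 and 6.61 in BMP-21, beside 0.10 and 0.04 for all genes. COL3A1 measured 2.92 and 0.334 CPM in the NT2-0 libraries, 114 and 4.73, 1389 and 316, and 5340.5 and 5369 CPM in RA-5, RA-10 and RA-21, and 1618 and 826, 836 and 7753, and 21948 and 19563 CPM in BMP-5, BMP-10 and BMP-21. Both day 21 groups lay far above both day 0 libraries. The RA-21 and BMP-21 libraries did not overlap, but the difference between these groups was not called. The log2 fold change against NT2-0, given here and below with its SE, was 11.72 ± 2.11, adjusted p = 0.0017 in RA-21 and 13.67 ± 2.25, adjusted p = 0.0009 in BMP-21. These sizes rest on the day 0 libraries, where COL3A1 was near 0: without NT2-0 replicate 1 they were 13.96 and 15.91, and without NT2-0 replicate 2 they were 10.84 and 12.79. The RA-10 and BMP-5 calls of COL3A1 (log2 fold changes of 9.07 and 9.59) were lost without NT2-0 replicate 2, and in RA-5 COL3A1 was not called (5.23 ± 1.64, adjusted p = 0.08).

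**Figure D3:**
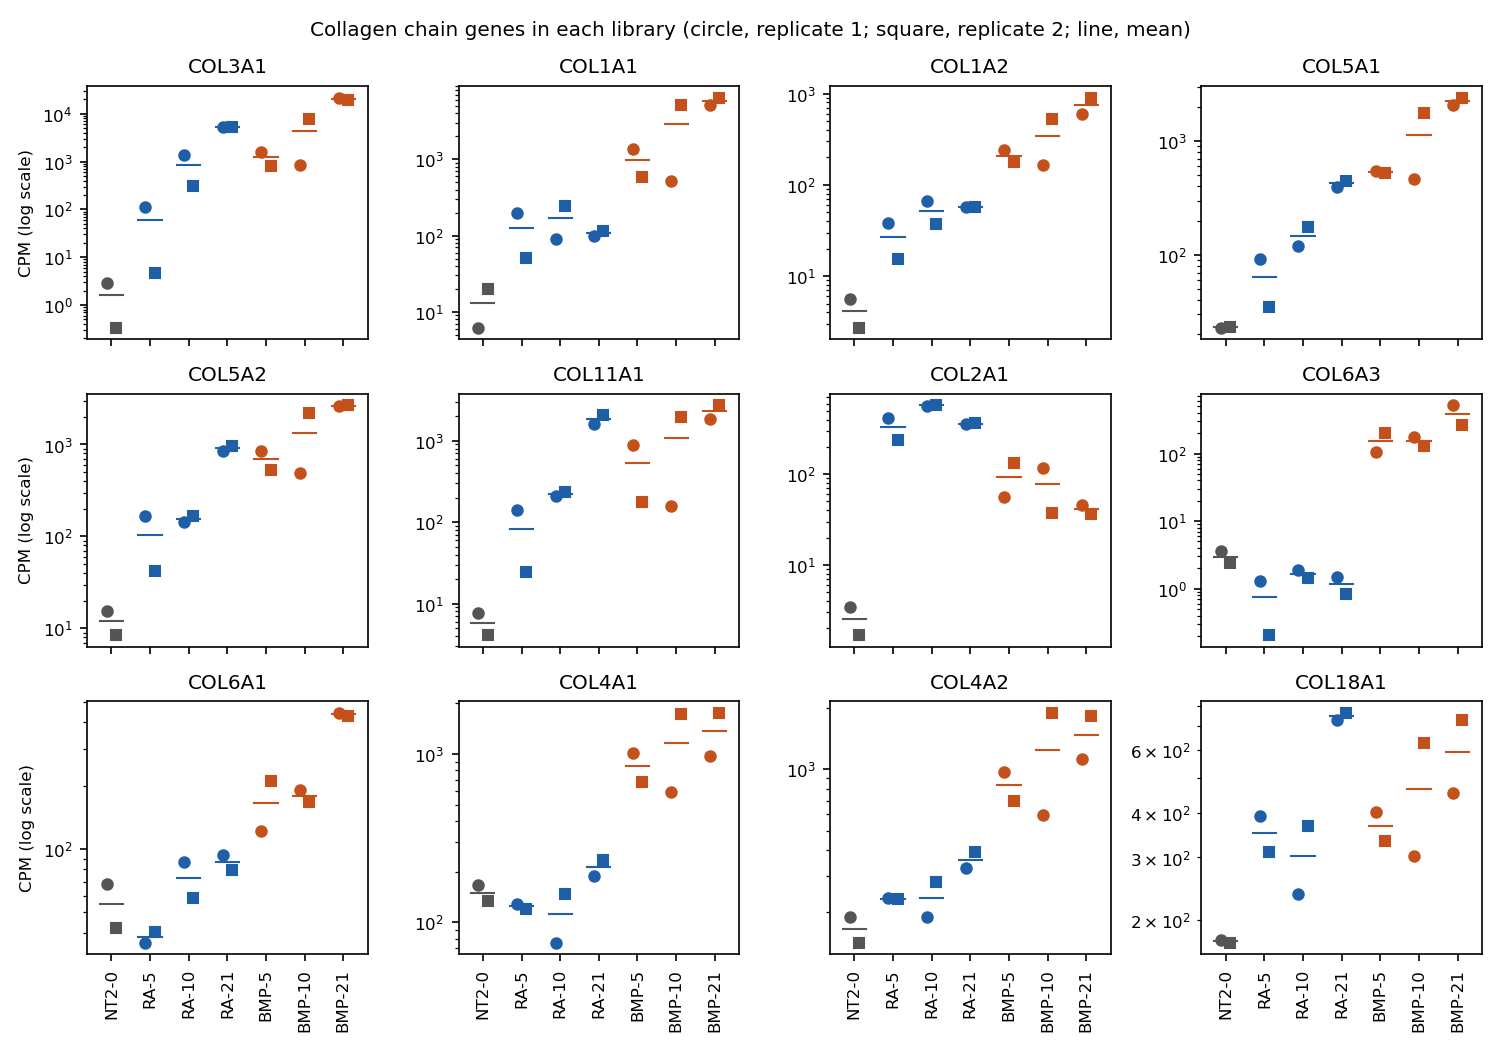
Each panel shows 1 collagen gene; points are the 14 libraries (circles replicate 1, squares replicate 2) by group, lines are group means, and the vertical axis is CPM on a log scale that differs between panels. COL2A1 is higher in every RA library than in any BMP2 library, while COL6A3 is below 2 CPM in every RA library and above 100 CPM in every BMP2 library.

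Type I collagen, the main fibril of bone and tendon, is built from COL1A1 and COL1A2 chains. COL1A1 stood at 6.21 and 19.98 CPM at day 0, went through 199 and 50.2 (RA-5), 90.8 and 245 (RA-10) and 98.2 and 116 (RA-21) under RA, and through 1367 and 589.9 (BMP-5), 514 and 5196 (BMP-10) and 5171 and 6416 (BMP-21) under BMP2. COL1A2 was at 5.60 and 2.71 CPM in NT2-0, at 38.6 and 15.3 in RA-5, 66.4 and 37.2 in RA-10 and 57.5 and 56.8 in RA-21, and at 242 and 176 in BMP-5, 167 and 525 in BMP-10 and 603 and 907 in BMP-21. Both genes were high in BMP2 libraries, and the RA libraries lay between day 0 and BMP2. In BMP-21 the log2 fold changes against NT2-0 were 8.79 ± 1.38, adjusted p = 0.00071 for COL1A1 and 7.51 ± 0.77, adjusted p = 0.00011 for COL1A2, and both were also called and kept in BMP-5 and BMP-10. COL1A2 also rose in RA-21 (3.79 ± 0.65, adjusted p = 0.0014), and this call was kept. The COL1A1 call in RA-21 (3.03 ± 1.06, adjusted p = 0.041) was lost without either NT2-0 library, either RA-21 library or either BMP-21 library, and within RA, COL1A1 did not differ detectably between day 21 and day 5 (-0.21 ± 0.98, adjusted p = 0.89; 1.10 without RA-5 replicate 1). Summed fibroblast and mesenchyme markers were at 6106 and 5732 CPM in BMP-21 and 449 and 447 CPM in RA-21, against 275 and 253.7 CPM in NT2-0. Of these 7 markers, 6 were higher in RA-21 and 5 in BMP-21. THY1 was lower in both and held 227 and 218 CPM of the NT2-0 sum. The part of these markers in the fibrillar results was not tested.

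COL2A1, the chain of type II collagen of cartilage and notochord, had the opposite bias. It measured 3.45 and 1.67 CPM in the NT2-0 libraries, 414 and 239, 569.9 and 577, and 361 and 362 CPM in RA-5, RA-10 and RA-21, and 55.6 and 131, 118 and 36.8, and 46.0 and 36.4 CPM in BMP-5, BMP-10 and BMP-21. Every treated library lay above both day 0 libraries, and all RA libraries lay above all BMP2 libraries. It was called higher than NT2-0 in all 6 treated groups and kept in each when any library was left out, from 7.82 ± 0.74, adjusted p = 0.00025 in RA-10 to 4.02 ± 0.63, adjusted p = 0.00071 in BMP-21. RA-21 did not differ detectably from RA-5 (0.15 ± 0.55, adjusted p = 0.87; -0.22 without RA-5 replicate 2). Of 6 cartilage markers, 2 were higher and 2 lower in RA-21, against 23.4% and 21.1% of all genes. The cartilage regulator SOX9 was at 4.66 and 3.65 CPM in NT2-0 and 36.3 and 28.1 CPM in RA-21 and the matrix protein gene MATN1 at 0.203 and 0.195 and 1.66 and 2.02 CPM, while the proteoglycan ACAN was at 6.55 and 5.93 and 0.0896 and 0.216 CPM and CNMD at 16.2 and 12.6 and 0.299 and 0.135 CPM. Summed, the 6 markers were at 120 and 56.2 CPM in RA-5 and 430 and 529 in BMP-5. They were at 106 and 82.7 CPM in RA-10 and 454 and 110 in BMP-10. At day 21 they were at 45.1 and 38.2 CPM in RA-21 and 42.0 and 75.6 in BMP-21. This sum was thus higher under BMP2 at days 5 and 10, and the day 21 groups overlapped. The part of these markers in the COL2A1 result was not tested.

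The minor fibrillar chains of types V and XI, which are built into type I and type II fibrils and limit their width, rose under both factors. COL5A1 stood at 22.9 and 23.1 CPM at day 0, went through 92.1 and 34.7 (RA-5), 119 and 177 (RA-10) and 399.7 and 450.4 (RA-21) under RA, and through 551 and 524 (BMP-5), 467 and 1784 (BMP-10) and 2066 and 2426 (BMP-21) under BMP2. COL5A2 was at 15.5 and 8.41 CPM in NT2-0, at 165 and 42.6 in RA-5, 145 and 168 in RA-10 and 844 and 966 in RA-21, and at 856 and 523 in BMP-5, 486 and 2185 in BMP-10 and 2598 and 2682 in BMP-21. COL11A1 measured 7.58 and 4.08 CPM in the NT2-0 libraries, 141 and 24.5, 207 and 236, and 1599 and 2083 CPM in RA-5, RA-10 and RA-21, and 885 and 175, 159.6 and 1976, and 1842 and 2734 CPM in BMP-5, BMP-10 and BMP-21. For all 3, the day 21 libraries of each factor lay above every day 0 library. The RA-21 log2 fold changes were 4.21 ± 0.63, adjusted p = 0.00063 for COL5A1, 6.25 ± 0.86, adjusted p = 0.00044 for COL5A2 and 8.31 ± 1.47, adjusted p = 0.0015 for COL11A1. In BMP-21 they were 6.61 ± 0.70, adjusted p = 0.00012, 7.79 ± 0.92, adjusted p = 0.00019 and 8.62 ± 1.49, adjusted p = 0.0012, and all 6 calls were kept. Of the other chains of these types, COL5A3 lay between 0.457 and 5.01 CPM in all libraries and was called in no comparison. COL11A2 lay between 0.122 and 3.98 CPM, with a RA-21 call (2.29 ± 0.84, adjusted p = 0.048) that was lost without any of 9 libraries (NT2-0 replicate 1 and both libraries of RA-5, RA-10, RA-21 and BMP-21) and with RLE size factors.

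COL24A1 and COL27A1 are fibrillar chains of developing bone and cartilage. COL27A1 stood at 20.7 and 18.6 CPM at day 0, went through 17.2 and 7.82 (RA-5), 16.6 and 25.3 (RA-10) and 65.4 and 57.4 (RA-21) under RA, and through 53.3 and 74.4 (BMP-5), 59.0 and 33.1 (BMP-10) and 43.6 and 25.4 (BMP-21) under BMP2. It was called higher in RA-21 (1.64 ± 0.42, adjusted p = 0.011), a call lost without either NT2-0 library or RA-21 replicate 1. In BMP-5 (1.70, adjusted p = 0.015) and BMP-10 (1.23, adjusted p = 0.044) it was also called higher, and neither call was kept. It was not called in BMP-21 (0.81 ± 0.42, adjusted p = 0.13). COL24A1 ranged from 7.86 CPM in NT2-0 replicate 2 to 69.1 CPM in BMP-5 replicate 2, and was not called at day 21. Its higher calls in BMP-5 (2.49, adjusted p = 0.024) and BMP-10 (2.02, adjusted p = 0.043) were not kept.

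In the network class, 2 of the 8 tested genes were higher in RA-21 and 7 of 8 in BMP-21, with 0 lower in either. Among all genes 23.4% and 25% were higher, so the RA-21 share is close to that of all genes. Of these, 1 of the 2 and 5 of the 7 were kept. COL4A1 was at 166 and 134 CPM in NT2-0, at 128 and 120.3 in RA-5, 75.4 and 148 in RA-10 and 189 and 236 in RA-21, and at 1019 and 683 in BMP-5, 590.4 and 1735 in BMP-10 and 967 and 1758 in BMP-21. COL4A2 measured 189 and 141 CPM in the NT2-0 libraries, 232 and 232, 189 and 278, and 328 and 391 CPM in RA-5, RA-10 and RA-21, and 967 and 697, 598 and 1892, and 1118 and 1821 CPM in BMP-5, BMP-10 and BMP-21. All BMP2 libraries lay above all day 0 and RA libraries for both genes. The BMP-21 log2 fold changes were 3.18 ± 0.53, adjusted p = 0.00096 for COL4A1 and 3.15 ± 0.49, adjusted p = 0.00069 for COL4A2, both kept. The RA-21 values, 0.50 ± 0.49 (adjusted p = 0.43) and 1.12 ± 0.46 (adjusted p = 0.07), were not called. Of the COL4A2 span, 6.7% overlaps COL4A1 or antisense genes, and no source used here says whether the counting used strand.

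COL4A1 and COL4A2 start head to head on opposite strands, and the bases between their starts are shown because this stretch lies upstream of both genes of the pair. Promoter sequences here are from RefSeq on build GRCh38.p14, in which 32 of the 44 collagen genes were matched; the printed bases end just before the start site. The stretch between the pair is 126 bases, on the plus strand at chr13:110307158-110307283.
COL4A1 to COL4A2: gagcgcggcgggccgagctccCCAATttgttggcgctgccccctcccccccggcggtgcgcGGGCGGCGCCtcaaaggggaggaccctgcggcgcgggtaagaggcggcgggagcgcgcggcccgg
Capitals mark matches on either strand to any of 6 motifs. TATAAA is the letters bound by the basal factor TBP, and CCAAT those bound by the general factor NF-Y. GGGCGG is the form bound by SP1 family proteins. CAGAC is read by SMAD proteins, and GGCGCC is preferred by the SMADs of BMP signalling. AGGTCA is the core that nuclear receptors, RA receptors included, recognise. The stretch holds 1 CCAAT match, 1 GGGCGG match and 1 GGCGCC match, and the last pair share bases. A match is a run of letters and not a shown binding site. Among the 35116 windows of 250 bases before a start in the table, CCAAT occurs in 32.0%, GGGCGG in 42.6% and GGCGCC in 16.4%. Those windows are longer than the 126-base stretch, so their rates are not matched to it.

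COL4A5 and COL4A6, chains of the basement membranes of kidney, skin and smooth muscle, also start head to head. COL4A5 stood at 58.7 and 40.8 CPM at day 0, went through 95.4 and 85.1 (RA-5), 120.5 and 121 (RA-10) and 333 and 344 (RA-21) under RA, and through 147 and 153 (BMP-5), 126 and 240.5 (BMP-10) and 329 and 392 (BMP-21) under BMP2. COL4A6 was at 46.3 and 43.2 CPM in NT2-0, at 64.9 and 73.5 in RA-5, 65.0 and 54.5 in RA-10 and 66.7 and 71.9 in RA-21, and at 61.5 and 62.5 in BMP-5, 57.5 and 52.7 in BMP-10 and 92.1 and 109 in BMP-21. COL4A5 lay above both day 0 libraries in every treated library, and its level did not differ detectably between RA-21 and BMP-21 (-0.09 ± 0.27, adjusted p = 0.86). Its log2 fold changes were 2.77 ± 0.29, adjusted p = 0.00014 in RA-21 and 2.86 ± 0.29, adjusted p = 0.0001 in BMP-21, both kept. COL4A6 rose by 0.63 ± 0.15, adjusted p = 0.0065 in RA-21, lost without NT2-0 replicate 2 or RA-21 replicate 2, and 1.17 ± 0.15, adjusted p = 0.00025 in BMP-21, which was kept. The 250 bases before the COL4A5 start, on the plus strand at chrX:108439588-108439837, are shown beside the shorter COL4A1 and COL4A2 stretch.
COL4A5: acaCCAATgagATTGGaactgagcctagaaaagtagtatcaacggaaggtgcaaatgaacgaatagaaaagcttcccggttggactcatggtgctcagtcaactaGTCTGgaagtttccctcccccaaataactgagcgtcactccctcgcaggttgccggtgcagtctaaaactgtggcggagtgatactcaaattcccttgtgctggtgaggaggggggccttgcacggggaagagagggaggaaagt
This window holds 2 CCAAT matches and 1 CAGAC match, and 0 of the GGGCGG and GGCGCC letters.

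The third type IV pair, COL4A3 and COL4A4 of the glomerular basement membrane, took few reads. COL4A4 measured 4.62 and 2.34 CPM in the NT2-0 libraries, 3.11 and 5.88, 2.59 and 2.16, and 1.69 and 1.70 CPM in RA-5, RA-10 and RA-21, and 3.04 and 4.40, 3.02 and 34.0, and 11.4 and 46.0 CPM in BMP-5, BMP-10 and BMP-21. BMP-10 replicate 2 and both BMP-21 libraries lay above the 11 others. Its BMP-21 call (3.05 ± 0.98, adjusted p = 0.027) was lost without either NT2-0 library or BMP-21 replicate 2. COL4A3 was at 6.62 CPM in BMP-10 replicate 2, 2.18 and 6.42 CPM in BMP-21 and below 1 CPM in all other libraries, and was not called. The high libraries of this pair were the same 3 in both genes.

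Type VIII chains form the hexagonal networks beneath endothelia. COL8A2 stood at 3.002 and 2.02 CPM at day 0, went through 1.06 and 0.963 (RA-5), 1.64 and 1.74 (RA-10) and 3.05 and 1.83 (RA-21) under RA, and through 15.4 and 14.5 (BMP-5), 13.5 and 10.9 (BMP-10) and 75.4 and 46.4 (BMP-21) under BMP2. It rose in BMP-5, BMP-10 and BMP-21, with 4.60 ± 0.36, adjusted p = 5.2e-05 in BMP-21, and each of these calls was kept. All BMP2 libraries lay above all others. In RA-5 it was lower than at day 0 (-1.31 ± 0.33, adjusted p = 0.04), a call lost without any of 9 libraries (both of NT2-0, RA-5, RA-10 and BMP-5, and RA-21 replicate 1), with library size alone and when those groups were fitted alone. COL8A1 was at 0.690 and 1.67 CPM in NT2-0, at 1.26 and 0.146 in RA-5, 2.97 and 6.15 in RA-10 and 9.91 and 11.2 in RA-21, and at 15.8 and 3.32 in BMP-5, 2.64 and 127 in BMP-10 and 17.2 and 25.8 in BMP-21. Its BMP-10 mean rests on replicate 2. Its call in BMP-21 (4.17 ± 1.52, adjusted p = 0.045) was lost without either library of NT2-0, RA-10, RA-21 or BMP-21 and with a replicate block.

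In the beaded filament class, all 5 genes were higher in BMP-5, BMP-10 and BMP-21 than at day 0 (15.9%, 19.8% and 25% of all genes were higher). In RA-21, 2 of 5 were higher, against 23.4% of all genes. Of the BMP2 calls, 2, 4 and 4 were kept. The chains of the ordinary type VI trimer are COL6A1, COL6A2 and COL6A3, and type VI collagen surrounds muscle fibres. COL6A3 measured 3.57 and 2.41 CPM in the NT2-0 libraries, 1.30 and 0.204, 1.88 and 1.46, and 1.49 and 0.835 CPM in RA-5, RA-10 and RA-21, and 105 and 205, 177 and 131, and 521 and 261 CPM in BMP-5, BMP-10 and BMP-21. The RA libraries lay below both day 0 libraries and the BMP2 libraries far above them, with no overlap. The log2 fold change was 5.70 ± 0.74, adjusted p = 0.00076 in BMP-5 and 7.04 ± 0.79, adjusted p = 0.00015 in BMP-21. The lower RA-21 level was not called (-1.36 ± 0.66, adjusted p = 0.12).

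COL6A1 stood at 68.0 and 42.2 CPM at day 0, went through 35.8 and 40.4 (RA-5), 87.1 and 58.3 (RA-10) and 94.0 and 79.5 (RA-21) under RA, and through 122 and 211 (BMP-5), 191 and 167 (BMP-10) and 444 and 429.7 (BMP-21) under BMP2. COL6A2 was at 38.2 and 30.1 CPM in NT2-0, at 16.01 and 12.4 in RA-5, 23.2 and 18.6 in RA-10 and 65.3 and 57.2 in RA-21, and at 65.7 and 114 in BMP-5, 106 and 179 in BMP-10 and 541 and 409.5 in BMP-21. For both genes every BMP2 library lay above every RA and day 0 library. In BMP-21 the log2 fold changes were 2.99 ± 0.32, adjusted p = 0.00013 for COL6A1 and 3.80 ± 0.35, adjusted p = 7.6e-05 for COL6A2, both kept, while the RA-21 values of 0.66 ± 0.30 (adjusted p = 0.098) and 0.84 ± 0.31 (adjusted p = 0.051) were not called. In RA-5, COL6A2 was lower than at day 0 (-1.27 ± 0.32, adjusted p = 0.038), a call lost without any of 10 libraries (both of NT2-0, RA-5, RA-10, RA-21 and BMP-21) and with a replicate block. The windows of COL6A2, on the plus strand at chr21:46097862-46098111, and of COL6A3, on the minus strand at chr2:237414165-237414414, are shown because the 2 chains share a trimer and both rose under BMP2.
COL6A2: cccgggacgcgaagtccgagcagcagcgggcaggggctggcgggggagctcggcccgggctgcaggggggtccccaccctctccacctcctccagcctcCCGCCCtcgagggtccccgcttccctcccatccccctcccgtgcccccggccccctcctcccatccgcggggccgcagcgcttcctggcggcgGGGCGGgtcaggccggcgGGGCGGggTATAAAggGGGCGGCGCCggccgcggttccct
COL6A3: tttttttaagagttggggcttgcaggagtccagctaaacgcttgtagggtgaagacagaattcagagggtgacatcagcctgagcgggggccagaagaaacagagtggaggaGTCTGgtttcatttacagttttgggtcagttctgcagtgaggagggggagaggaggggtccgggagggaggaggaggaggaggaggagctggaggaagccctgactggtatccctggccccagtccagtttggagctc
The COL6A2 window holds 4 GGGCGG matches, 1 TATAAA match and 1 GGCGCC match, and the COL6A3 window holds 1 CAGAC match alone. The windows of these partner chains shared 0 of the 6 motifs searched. TATAAA occurs in 10.7% and CAGAC in 38.0% of all windows. Over the 32 collagen genes with windows, a motif was counted where any window of the gene held it. TATAAA was found in 7 genes, CCAAT in 11, GGGCGG in 21, CAGAC in 13, GGCGCC in 12 and AGGTCA in 1, COL7A1. Per window, TATAAA occurs in 18.2% of the 44 collagen windows and 10.7% of all windows, and CCAAT in 27.3% and 32.0%. The figures are 54.5% and 42.6% for GGGCGG, 36.4% and 38.0% for CAGAC, 29.5% and 16.4% for GGCGCC, and 2.3% and 12.1% for AGGTCA. These differences were not tested. The other 12 collagen genes had no window, so the rates do not describe them. No motif was counted in COL1A1, COL1A2, COL2A1, COL3A1, COL5A2, COL6A1, COL14A1 or COL22A1, and most or all of these had no window.

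COL6A5 and COL6A6 encode chains that can replace the alpha 3 chain in type VI trimers, and both rose under RA as well. COL6A6 measured 0.406 and 0.487 CPM in the NT2-0 libraries, 1.55 and 0.583, 1.87 and 0.298, and 101 and 58.8 CPM in RA-5, RA-10 and RA-21, and 34.9 and 120.4, 99.2 and 2.82, and 79.9 and 33.8 CPM in BMP-5, BMP-10 and BMP-21. RA-21 and BMP-21 overlapped, and their difference was not called (0.49 ± 1.22, adjusted p = 0.82; -0.02 without BMP-21 replicate 2). The RA-21 rise (7.47 ± 1.67, adjusted p = 0.0052) was kept, and the BMP-21 rise (6.98 ± 1.63, adjusted p = 0.006) was lost without either NT2-0 library. COL6A5 had 0 counts in both NT2-0 libraries and 2.90 and 3.89 CPM in RA-21. Its group mean lay 140-fold above a floor of 3 counts over the NT2-0 group in RA-21 and 65-fold above it in BMP-21. Both calls were kept.

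FACIT genes rose in part: 7 of 10 were higher in RA-21 and 7 of 10 in BMP-21, where 1 was lower. Over all genes, 23.4% were higher in RA-21, and 25% were higher and 22.1% lower in BMP-21. Of the higher FACIT calls, 4 were kept in RA-21 and 4 in BMP-21. Type IX chains coat type II fibrils in cartilage. COL9A1 stood at 6.63 and 4.55 CPM at day 0, went through 6.94 and 6.39 (RA-5), 7.16 and 5.65 (RA-10) and 33.2 and 37.8 (RA-21) under RA, and through 0.742 and 0.880 (BMP-5), 1.05 and 0.112 (BMP-10) and 0.349 and 1.18 (BMP-21) under BMP2. RA-21 lay above day 0 and every BMP2 library lay below it. The RA-21 rise (2.67 ± 0.74, adjusted p = 0.015) was lost without either NT2-0 library or RA-21 replicate 2, and the BMP-21 fall (-2.87 ± 0.77, adjusted p = 0.012) without NT2-0 replicate 1 or BMP-21 replicate 1. COL9A1 was the 1 collagen gene called lower in BMP-5 (-2.78 ± 0.77, adjusted p = 0.022; lost without either NT2-0 or either BMP-5 library) and in BMP-10 (-3.24 ± 0.78, adjusted p = 0.01; kept). Its partner COL9A3 was at 42.8 and 26.1 CPM in NT2-0, at 31.6 and 18.6 in RA-5, 7.33 and 13.0 in RA-10 and 119 and 94.8 in RA-21, and at 152 and 137 in BMP-5, 121 and 42.2 in BMP-10 and 168 and 93.5 in BMP-21. COL9A3 was the 1 gene called lower in RA-10 (-1.76 ± 0.52, adjusted p = 0.033), a call lost without any of 7 libraries (both of NT2-0, RA-10 and RA-21, and BMP-5 replicate 2) and with library size alone. It was called higher in RA-21 (1.63 ± 0.51, adjusted p = 0.026), BMP-5 (2.07 ± 0.52, adjusted p = 0.015) and BMP-21 (1.93 ± 0.52, adjusted p = 0.012). Each of these calls was lost without NT2-0 replicate 2, and also without either RA-21 library, BMP-5 replicate 1 or BMP-21 replicate 1 in its own group. COL9A2 stood at 4.46 and 4.62 CPM in NT2-0, 21.2 and 24.8 CPM in RA-21, and 10.6 and 8.19 CPM in BMP-21.

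Another FACIT gene, COL14A1, measured 5.29 and 3.28 CPM in the NT2-0 libraries. Under RA it was at 40.4 and 35.4 CPM in RA-5, 30.5 and 33.1 in RA-10, and 66.7 and 48.4 in RA-21. Under BMP2 it was at 11.1 and 10.9 CPM in BMP-5, 10.8 and 5.21 in BMP-10, and 98.1 and 88.0 in BMP-21. Every treated library but BMP-10 replicate 2 lay above both day 0 libraries, and the RA libraries lay above the BMP2 libraries at days 5 and 10 and below them at day 21. COL14A1 rose against NT2-0 in RA-5 (3.15 ± 0.35, adjusted p = 0.00091), in RA-21 (3.75 ± 0.36, adjusted p = 0.0001) and in BMP-21 (4.44 ± 0.37, adjusted p = 6.1e-05), each kept. COL16A1 stood at 0.487 and 0.417 CPM at day 0, went through 0.671 and 0.292 (RA-5), 0.876 and 2.79 (RA-10) and 26.3 and 28.9 (RA-21) under RA, and through 9.51 and 5.90 (BMP-5), 4.86 and 51.9 (BMP-10) and 98.9 and 102 (BMP-21) under BMP2. It rose in RA-21 (5.93 ± 1.06, adjusted p = 0.0016) and in BMP-21 (7.79 ± 1.14, adjusted p = 0.0005), both kept, and the difference between them was not called (-1.86 ± 0.85, adjusted p = 0.18). COL12A1 was at 16.4 and 34.1 CPM in NT2-0, at 99.9 and 20.1 in RA-5, 26.0 and 179 in RA-10 and 56.8 and 86.2 in RA-21, and at 314 and 106 in BMP-5, 87.3 and 854 in BMP-10 and 239 and 843 in BMP-21. Its replicates lay far apart in RA-5, RA-10 and BMP-10. The BMP-21 call (4.42 ± 1.35, adjusted p = 0.022) was lost without either NT2-0 library or BMP-21 replicate 2, and the RA-21 value was 1.498 ± 1.20 (adjusted p = 0.34).

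Few reads fell in the remaining FACITs. COL22A1, a chain found at tissue junctions such as that of muscle and tendon, measured 1.58 and 0.835 CPM in the NT2-0 libraries, 51.2 and 28.6, 12.4 and 30.7, and 26.3 and 29.3 CPM in RA-5, RA-10 and RA-21, and 2.17 and 3.11, 5.25 and 2.62, and 4.78 and 3.13 CPM in BMP-5, BMP-10 and BMP-21. All RA libraries lay above all BMP2 libraries. The COL22A1 rises in RA-5 (5.05 ± 0.61, adjusted p = 0.0013), RA-10 and RA-21 (4.53 ± 0.59, adjusted p = 0.00034) were kept. Smaller rises were called in BMP-10 (1.71, adjusted p = 0.032) and BMP-21 (1.72, adjusted p = 0.025) and were not kept. COL21A1 was at 33.1 and 16.6 CPM in BMP-21 and at most 6.93 CPM elsewhere, with a kept BMP-21 rise (3.85 ± 0.83, adjusted p = 0.004). COL19A1 stood at 0.0811 and 0.167 CPM at day 0, went through 0.244 and 0.146 (RA-5), 0.343 and 0.238 (RA-10) and 0.956 and 1.68 (RA-21) under RA, and through 3.48 and 4.97 (BMP-5), 4.47 and 1.99 (BMP-10) and 1.11 and 1.26 (BMP-21) under BMP2. It was highest in BMP-5 and was called higher in RA-21 and in BMP-5, BMP-10 and BMP-21, all kept. COL20A1 lay between 0.194 and 1.45 CPM and was called in no comparison.

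Transmembrane collagens stay anchored in the cell membrane. Of the 4 genes, 0 were higher and 1 was lower at day 21 under each factor, where 21.1% (RA-21) and 22.1% (BMP-21) of all genes were lower. COL13A1, found at neuromuscular junctions, was at 7.12 and 6.30 CPM in NT2-0, at 24.9 and 20.8 in RA-5, 55.9 and 27.6 in RA-10 and 10.8 and 7.10 in RA-21, and at 1.79 and 7.20 in BMP-5, 5.91 and 1.70 in BMP-10 and 0.164 and 0.714 in BMP-21. The BMP-21 libraries lay below every other library, and the fall against NT2-0 was -3.93 ± 0.88, adjusted p = 0.0049, which was kept. In RA-10 it was called higher (2.64 ± 0.80, adjusted p = 0.037), a call lost without any of 7 libraries (both of NT2-0, RA-5 and RA-21, and RA-10 replicate 1) and with a replicate block. COL17A1, a part of hemidesmosomes that hold epithelia to basement membrane, measured 2.64 and 3.37 CPM in the NT2-0 libraries, 1.14 and 0.554, 3.41 and 3.98, and 0.194 and 0.216 CPM in RA-5, RA-10 and RA-21, and 3.73 and 6.49, 5.45 and 1.83, and 0.985 and 0.0420 CPM in BMP-5, BMP-10 and BMP-21. Its RA-21 fall (-3.86 ± 1.05, adjusted p = 0.014) was lost without either RA-21 library. COL25A1, a chain of nerve cells that is also found in amyloid plaques, stood at 3.27 and 3.94 CPM at day 0, went through 14.8 and 7.57 (RA-5), 4.30 and 9.54 (RA-10) and 6.32 and 5.09 (RA-21) under RA, and through 29.1 and 48.4 (BMP-5), 43.4 and 17.0 (BMP-10) and 11.3 and 6.51 (BMP-21) under BMP2. It was highest in BMP-5 and BMP-10, with a kept BMP-5 rise (3.42 ± 0.59, adjusted p = 0.0027). COL23A1 ran from 0.581 to 11.005 CPM and was called in no comparison.

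The multiplexins COL15A1 and COL18A1 lie in the basement membrane zone, and the tail of COL18A1 can be released as endostatin. COL15A1 was at 0.629 and 0.237 CPM in NT2-0, at 0.854 and 0.350 in RA-5, 0.685 and 4.31 in RA-10 and 1.73 and 1.32 in RA-21, and at 13.2 and 5.25 in BMP-5, 5.89 and 29.3 in BMP-10 and 122 and 100.4 in BMP-21. It rose in BMP-21 (8.04 ± 1.21, adjusted p = 0.00057, kept) and was not called in RA-21 (1.85 ± 0.99, adjusted p = 0.15). COL18A1 measured 176 and 173 CPM in the NT2-0 libraries, 393 and 310.1, 237 and 367, and 731 and 764 CPM in RA-5, RA-10 and RA-21, and 402 and 334, 303 and 629, and 455 and 728 CPM in BMP-5, BMP-10 and BMP-21. Both RA-21 libraries lay above both BMP-21 libraries, narrowly above replicate 2, and the difference was not called. Its rises in RA-21 (2.10 ± 0.36, adjusted p = 0.0013) and BMP-21 (1.76 ± 0.35, adjusted p = 0.0027) were kept, but 26.0% of its span overlaps antisense genes and SLC19A1, so part of its count is uncertain.

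COL7A1, the anchoring fibril chain of skin, lay between 4.89 and 40.4 CPM and was called in no comparison. COL26A1 stood at 70.7 and 61.6 CPM at day 0, went through 124 and 63.9 (RA-5), 60.2 and 58.4 (RA-10) and 90.4 and 89.9 (RA-21) under RA, and through 178 and 148 (BMP-5), 147 and 27.3 (BMP-10) and 72.0 and 55.7 (BMP-21) under BMP2. It was not called at day 21 (0.45 ± 0.58, adjusted p = 0.56, in RA-21, and -0.05 ± 0.58, adjusted p = 0.95, in BMP-21, where it was 0.05 without NT2-0 replicate 1 and 0.14 without BMP-21 replicate 2). COL28A1 was at 3.16 and 1.67 CPM in NT2-0, at 1.10 and 1.55 in RA-5, 1.33 and 0.596 in RA-10 and 0.269 and 0.148 in RA-21, and at 0.856 and 1.19 in BMP-5, 1.76 and 0.224 in BMP-10 and 0.0821 and 0.0840 in BMP-21. All day 21 libraries lay below all day 0 libraries. It fell in BMP-21 (-4.83 ± 0.99, adjusted p = 0.003, kept), and its RA-21 fall (-3.52 ± 0.90, adjusted p = 0.01) was lost without NT2-0 replicate 1 or RA-21 replicate 2.

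The factors were then compared with each other at the same day. In RA-21 against BMP-21, 4 of the 43 tested collagen genes were higher and 13 lower, where 12.1% of all genes were called, 5.99% higher and 6.07% lower. The lower genes were 5 of the 8 network genes, 3 of the 5 beaded filament genes, 3 of the 11 fibrillar genes, COL15A1 and COL21A1. COL6A3 had the widest gap (-8.39 ± 0.84, adjusted p = 0.00081), followed by COL15A1 (-6.19 ± 1.09, adjusted p = 0.0085) and COL1A1 (-5.75 ± 1.21, adjusted p = 0.016). The higher genes were COL9A1 (5.54 ± 0.86, adjusted p = 0.0049), COL13A1 (4.34 ± 0.90, adjusted p = 0.015), COL2A1 (3.13 ± 0.59, adjusted p = 0.011) and COL22A1 (2.81 ± 0.55, adjusted p = 0.012). COL3A1 (-1.96 ± 1.39, adjusted p = 0.38) and COL5A2 (-1.54 ± 0.70, adjusted p = 0.17) were not called. Nor were COL11A1 (-0.31 ± 1.06, adjusted p = 0.87) and COL14A1 (-0.69 ± 0.32, adjusted p = 0.18). The libraries of COL3A1, COL5A2 and COL14A1 did not overlap. Such separation was common with 2 libraries against 2: of the 44 collagen genes, 12 lay wholly higher and 22 wholly lower. The share over all genes was not computed, so the separation sets these genes apart from no others.

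**Figure D4:**
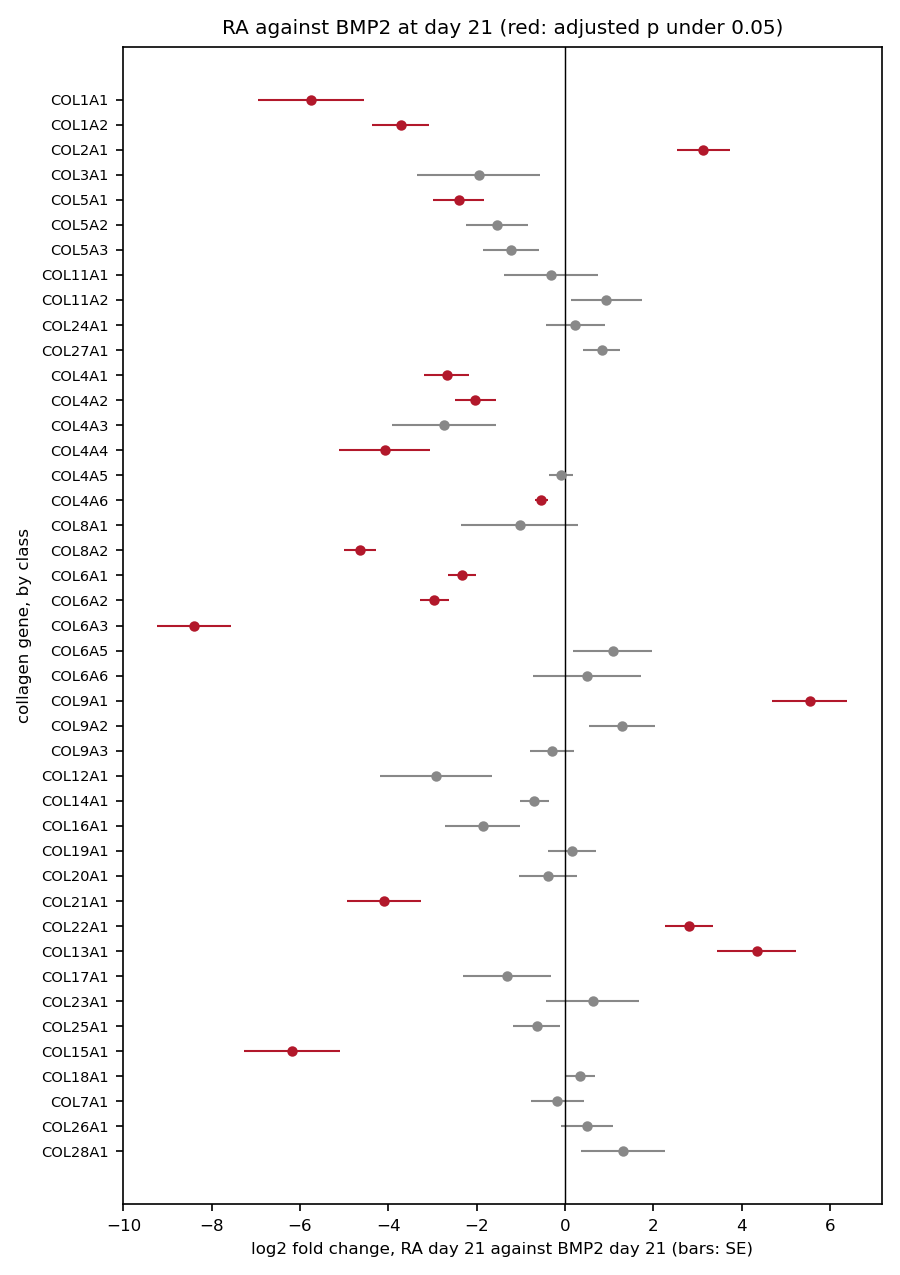
Points give the log2 fold change of RA-21 against BMP-21 for the 43 tested collagen genes in class order, bars give ± 1 SE, and red marks an adjusted p under 0.05. COL6A3 lies furthest to the left at -8.39 and COL9A1 furthest to the right at 5.54.

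Of these 17 calls, those of COL6A1, COL6A2, COL6A3, COL8A2 and COL9A1 were kept. Those of COL1A2 and COL15A1 were lost without either RA-21 library, and those of COL1A1, COL4A1, COL4A2, COL4A4 and COL22A1 without either RA-21 library or BMP-21 replicate 2. Those of COL13A1 and COL21A1 were lost without either RA-21 library or BMP-21 replicate 1, those of COL2A1 and COL5A1 without any of the 4 libraries compared, and that of COL4A6 without any of 10 libraries (both of NT2-0, RA-5, RA-21, BMP-5 and BMP-21). The count of 17 became 5 without either RA-21 library and 9 without BMP-21 replicate 2.

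At day 5, 3 collagen genes were higher and 15 lower in RA than in BMP2, where 12.2% of all genes were called, 5.97% higher and 6.25% lower. The 3 were COL9A1, COL14A1 and COL22A1, and of these COL22A1 was kept (3.91 ± 0.57, adjusted p = 0.0034). The COL9A1 call (3.03 ± 0.77, adjusted p = 0.032) was lost without either library of RA-5, RA-21 or BMP-5, and the COL14A1 call (1.78 ± 0.33, adjusted p = 0.0092) without either BMP-5 library. Among the lower genes, COL6A3 (-7.74 ± 0.83, adjusted p = 0.001), COL8A2 (-3.89 ± 0.36, adjusted p = 0.00073), COL6A2 (-2.66 ± 0.33, adjusted p = 0.0019), COL6A1 and COL19A1 were kept. COL3A1 was not called (-4.36 ± 1.54, adjusted p = 0.093). The count of 18 became 7 without RA-5 replicate 2, 9 and 11 without BMP-5 replicate 1 and 2, and 29 without either or both BMP-10 libraries.

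At day 10, 5 collagen genes were higher and 15 lower in RA than in BMP2, where 10.8% of all genes were called, 5.11% higher and 5.73% lower. The count of 20 became 26 and 16 without BMP-10 replicate 1 and 2, 8 and 6 without RA-10 replicate 1 and 2, and 1, COL6A3, when the 4 libraries were fitted alone. COL6A3 (-6.53 ± 0.77, adjusted p = 0.0021), COL4A1, COL6A2 and COL8A2 were lower in RA-10 and COL14A1 (1.99 ± 0.34, adjusted p = 0.0077) was higher, and these 5 calls were kept. The other 4 higher genes were COL2A1 and COL9A1, lost without either RA-10 library, COL13A1, lost without either RA-10 library or BMP-10 replicate 2, and COL22A1, lost without RA-10 replicate 2 or BMP-10 replicate 2. COL6A3 was therefore lower in RA than in BMP2 at each of the 3 days in every fit that left out 1 library, as were COL6A2 and COL8A2.

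Change within each factor was read from day 5 to day 21. Under RA, 16 collagen genes were higher at day 21 than at day 5 and 1, COL28A1, was lower, where 28.7% of all genes were called, 13.9% higher and 14.8% lower. COL16A1 (5.87 ± 1.05, adjusted p = 0.0041), COL27A1 (2.30 ± 0.43, adjusted p = 0.0049), COL6A2 (2.11 ± 0.33, adjusted p = 0.0024) and COL4A5 (1.91 ± 0.28, adjusted p = 0.002) rose and were kept. COL3A1 rose by 6.49 ± 1.70, adjusted p = 0.019, a call lost without RA-5 replicate 2 or either RA-21 library. The COL28A1 call was lost without any of 12 libraries (all but those of BMP-10) and with library size alone. The count of 17 became 11 and 4 without RA-5 replicate 1 and 2, and 7 without either RA-21 library. COL1A1 and COL2A1, given above, and COL1A2 (1.08 ± 0.59, adjusted p = 0.19) were not among the called genes.

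Under BMP2, 9 collagen genes were higher at day 21 than at day 5 and 4 lower, where 15.5% of all genes were called, 7.77% higher and 7.75% lower. COL14A1 (3.08 ± 0.35, adjusted p = 0.0062), COL6A2 (2.41 ± 0.33, adjusted p = 0.0098) and COL8A2 (2.02 ± 0.33, adjusted p = 0.011) rose, and their calls were lost without BMP-5 replicate 1 alone. COL3A1 was not called (4.09 ± 1.52, adjusted p = 0.091). The 4 lower genes were COL13A1, COL19A1, COL25A1 and COL28A1, whose calls were lost without any of 8 (COL13A1 and COL25A1: both libraries of NT2-0, RA-21, BMP-5 and BMP-21), 10 (COL28A1: those and RA-5) or 12 libraries (COL19A1: those, RA-5 and RA-10). The count of 13 became 0 and 4 without BMP-5 replicate 1 and 2, 6 and 3 without BMP-21 replicate 1 and 2, 6 without either RA-21 library, 8 without either NT2-0 library, and 22 without either or both BMP-10 libraries.

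The difference between these late changes was tested directly as an interaction, in which 1.64% of all genes were called, 0.705% higher and 0.935% lower. For collagen genes, 2 were higher and 1 lower. COL19A1 (4.60 ± 0.81, adjusted p = 0.026) and COL27A1 (3.18 ± 0.60, adjusted p = 0.034) had the more positive change under RA, and COL14A1 (-2.48 ± 0.46, adjusted p = 0.032) under BMP2. COL6A6 (6.70 ± 1.92, adjusted p = 0.1) was not called. Of these 3 calls, 0 were kept with every library left out; the libraries are named in the closing section.

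Pairs of chains, most of them partners in a trimer, were compared by the log2 ratio of their CPM, whose change between libraries does not depend on gene length. The COL6A3 to COL6A1 ratio lay between -7.63 and -4.13 in the NT2-0 and RA libraries and between -0.72 and 0.23 in the BMP2 libraries, with no overlap. The COL2A1 to COL1A1 ratio lay between 1.06 and 2.65 in RA and between -7.46 and -2.12 in BMP2, again with no overlap. The COL4A2 to COL4A1 ratio ran from 0.73 to 1.32 in RA and from -0.07 to 0.21 in NT2-0 and BMP2, and its range over all libraries, 1.39, was the narrowest of the 9 pairs computed. The COL3A1 to COL1A1 ratio was 5.76 and 5.53 in RA-21, 2.09 and 1.61 in BMP-21, and -1.09 and -5.90 in NT2-0. The COL4A5 to COL4A6 ratio was 0.34 and -0.08 in NT2-0, 2.32 and 2.26 in RA-21, and 1.84 and 1.84 in BMP-21. The COL1A1 to COL1A2 ratio spanned 0.15 to 2.88 between the NT2-0 replicates alone, so its levels of 0.77 and 1.03 in RA-21 and 3.10 and 2.82 in BMP-21 lay within or just past that spread.

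**Figure D5:**
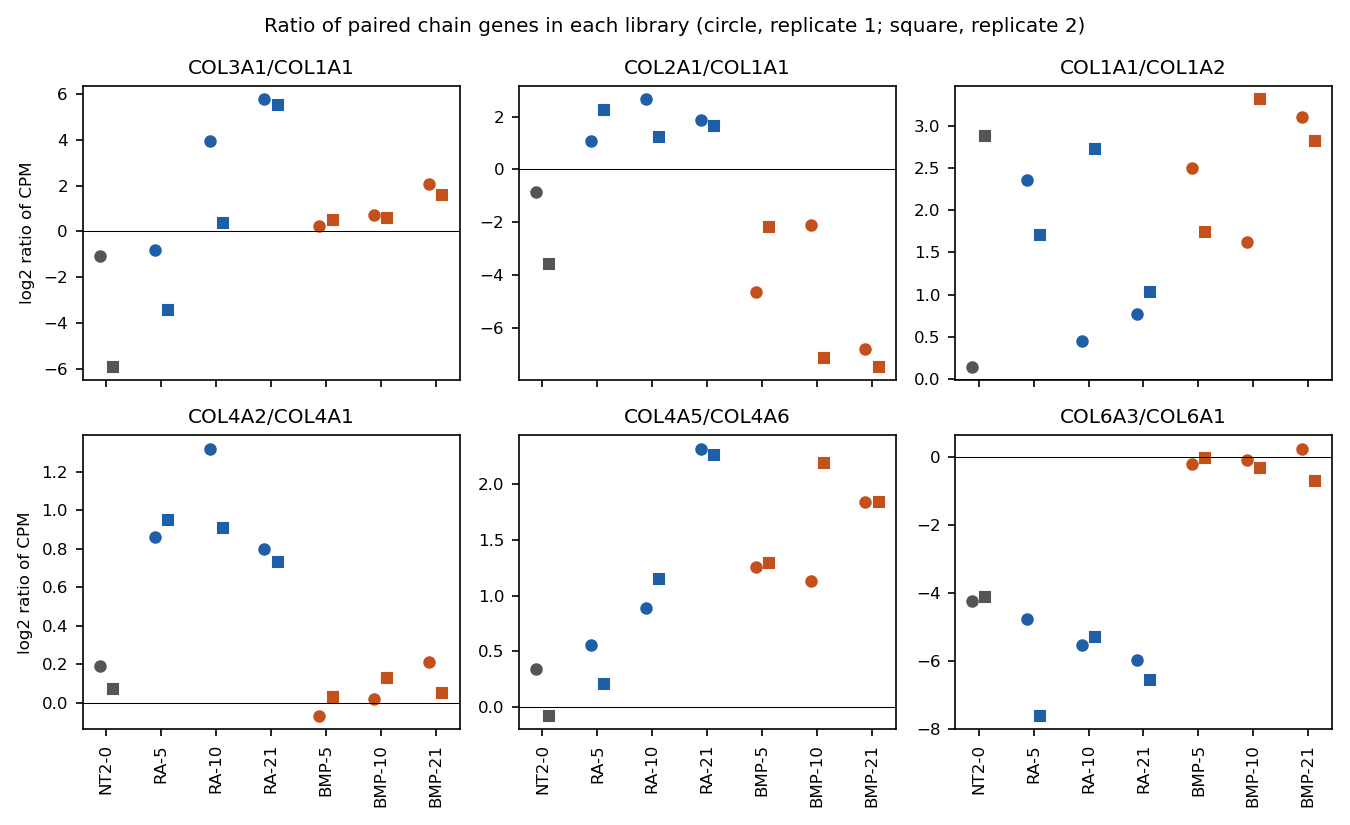
Each panel gives the log2 ratio of CPM of 2 collagen genes in the 14 libraries by group, circles for replicate 1 and squares for replicate 2, with a line at 0 where it falls in range. The COL6A3 to COL6A1 and COL2A1 to COL1A1 ratios separate RA libraries from BMP2 libraries without overlap.

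Levels of different genes were compared per length, as CPM per kb of exon (exon lengths from GENCODE release 29), and as the authors' RPKM, which divides by the whole gene span for most genes. COL3A1 ranked 1st of the 44 genes on both scales in RA-21 (784 and 788 CPM per kb, 150.1 RPKM on average) and in BMP-21 (3222 and 2872 CPM per kb, 499.9 RPKM). COL1A1 was 2nd on both scales in BMP-21 (527 and 654 CPM per kb), and 14th and 6th in RA-21 (10.0 and 11.9 CPM per kb). In NT2-0 the leaders were COL26A1, COL18A1 and COL6A1 per exon length, at 22.4 and 19.5, 20.7 and 20.3, and 12.7 and 7.89 CPM per kb respectively. COL26A1 and COL18A1 overlapped, COL6A1 lay below both, and by RPKM COL6A1 led. In RA-5, COL2A1 led on both scales by the group mean (62.2 and 35.9 CPM per kb), and per exon length it overlapped COL18A1 (46.1 and 36.4).

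Genes that fold, cut, crosslink and bind collagens were taken from 3 lists, and the changes given are log2 fold changes against NT2-0 with their SE, all called unless stated. Of 22 genes of folding and modification, 14 were higher and 0 lower in RA-21, and 16 and 0 in BMP-21. Among all genes 23.4% were higher and 21.1% lower in RA-21, and 25% and 22.1% in BMP-21. The RA-21 number became 9 and 8 without NT2-0 replicate 1 and 2 and 9 without RA-21 replicate 2. P4HA2, a subunit of the prolyl hydroxylase that stabilises the helix, was at 4.40 and 5.26 CPM in NT2-0, 30.8 and 39.7 in RA-21, and 85.0 and 151 in BMP-21 (log2 fold changes of 2.87 ± 0.46 and 4.61 ± 0.50). FKBP14, a prolyl isomerase, was at 35.0 and 36.7 CPM, 229 and 256, and 296 and 347 in the same groups (2.76 ± 0.43 and 3.17 ± 0.44). PLOD2, which hydroxylates lysines used in crosslinks, rose from 48.1 and 41.5 CPM to 245 and 246 in RA-21 (2.45 ± 0.26) and was at 241 and 317 in BMP-21. In RA-21 so did the prolyl 3-hydroxylase P3H2 (2.54 ± 0.40; 23.4 and 22.2 CPM to 119 and 146). CREB3L1, a membrane-bound transcription factor that acts on collagen genes, rose in BMP-21 (2.91 ± 0.53; 16.2 and 12.2 CPM to 101 and 113). P4HA3 was at 0.00 and 0.0417 CPM in NT2-0 and 1.89 and 4.85 CPM in BMP-21, and its fold is not given because day 0 held at most 3 counts.

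Of 13 genes of procollagen cleavage and crosslinking, 6 were higher and 1 lower in RA-21, where 44.6% of all genes were called, and 8 and 2 in BMP-21, where 47.1% were. BMP1, the procollagen C-proteinase, was at 15.1 and 13.8 CPM in NT2-0, 197 and 231 in RA-21, and 239 and 383 in BMP-21 (3.89 ± 0.49 and 4.43 ± 0.50). TLL1, a related proteinase, was at 0.507 and 0.362 CPM in NT2-0, at 0.0598 and 0.269 in RA-21, and rose to 11.1 and 15.9 in BMP-21 (4.96 ± 0.64). ADAMTS2, which removes the N-propeptide, fell in RA-21 (-3.46 ± 0.50; 10.3 and 14.8 CPM to 1.46 and 0.822). The lysyl oxidase LOX was at 8.498 and 5.09 CPM in NT2-0, 132 and 159 in RA-21, and 438 and 575 in BMP-21, with calls (4.43 ± 1.45 and 6.22 ± 1.57) lost without either NT2-0 library and, in RA-21, without either RA-21 library. LOXL4 rose in both (3.81 ± 0.71 and 5.12 ± 0.75).

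Of 10 collagen receptor and uptake genes, 5 were higher and 0 lower in RA-21, where 44.6% of all genes were called, and 6 and 0 in BMP-21, where 47.1% were. The RA-21 number became 8 without both BMP-10 libraries, and 8 higher and 1 lower when RA-21 and NT2-0 were fitted alone. DDR2, a receptor kinase for fibrillar collagen, was at 1.20 and 0.821 CPM in NT2-0, 94.5 and 82.3 in RA-21, and 408 and 446 in BMP-21 (6.46 ± 0.91 and 8.74 ± 0.99). ITGA11, an integrin chain for fibrillar collagen, was at 0.284 and 0.153 CPM, 4.45 and 10.7, and 238 and 653 (5.15 ± 1.29, lost without NT2-0 replicate 2, and 11.03 ± 1.53). The uptake receptor MRC2 rose in both (4.47 ± 0.43 and 3.93 ± 0.42). ITGA1, another integrin chain, was at 12.9 and 16.3 CPM in NT2-0, 200.2 and 271 in RA-21 and 61.2 and 90.6 in BMP-21 (4.01 ± 0.84, and 2.38 ± 0.78, lost without either NT2-0 library or BMP-21 replicate 2).

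Markers of several cell types also changed, some upward and some downward, and their part in the results was not tested. All 4 pluripotency markers were lower at day 21 under each factor, with a summed level of 4774 and 5407 CPM in NT2-0, 139.6 and 138.9 in RA-21, and 160.5 and 158.4 in BMP-21. Of 7 fibroblast and mesenchyme markers, 6 were higher and 1 lower in RA-21, and 5 and 1 in BMP-21. Over all genes, 23.4% were higher and 21.1% lower in RA-21, and 25% and 22.1% in BMP-21. THY1, the lower gene at day 21 under both factors, held most of the summed level of this list in NT2-0. It was at 227 and 218 CPM in NT2-0, 28.6 and 42.3 in RA-21, and 17.4 and 49.8 in BMP-21. DCN was listed at 0 in NT2-0 replicate 2 and both RA-5 libraries. The fibril-binding proteoglycans LUM and DCN made up most of the BMP-21 sum, at 4799 and 4385 CPM and at 936 and 1050.2 CPM. Of 5 smooth muscle markers, 5 were higher in BMP-5, where 15.9% of all genes were, 3 in BMP-21 and 1 in RA-21. ACTA2 was at 0.750 and 1.00 CPM in NT2-0, 431 and 94.6 in BMP-5, 151 and 106 in BMP-21, and 5.86 and 7.15 in RA-21. MYH11, a marker of mature smooth muscle, was at 1.46 and 0.974 CPM in NT2-0, 15.3 and 8.02 in BMP-5, 0.780 and 0.693 in BMP-21, and 1.55 and 1.44 in RA-21.

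For the neurons named as the aim of RA, 5 of 6 markers were in the table, and 4 were higher in RA-10, 2 in RA-21 and 2 in BMP-21, where 1 was lower. Over all genes, 12.9% were higher in RA-10, 23.4% were higher and 21.1% lower in RA-21, and 25% and 22.1% in BMP-21. The neuron markers summed to 57.8 and 42.2 CPM in NT2-0, 328.9 and 333.7 in RA-10, 173.7 and 206.8 in RA-21, and 73.1 and 113.9 in BMP-21. MAP2 held most of it in RA-21, at 133 and 171 CPM. SNAP25 was at 1.10 and 0.751 CPM in NT2-0, 17.1 and 25.1 in RA-10 and 32.5 and 30.0 in RA-21. DCX was at 21.1 and 5.26, 134.9 and 88.9, and 6.54 and 4.61 CPM in these groups, and STMN2 at 0.122 and 0.250, 2.13 and 17.6, and 0.478 and 0.162 CPM. In BMP-21, DCX was at 24.6 and 42.2 CPM and STMN2 at 14.2 and 10.1 CPM, above both RA-21 libraries. MAP2 (24.3 and 44.04 CPM), SNAP25 (9.85 and 17.4 CPM) and the remaining marker lay below both RA-21 libraries in BMP-21. In RA-21 against BMP-21, 1 of the 5 markers was called higher and 1 lower. Of 6 cartilage markers, 4 were higher in BMP-5, where 15.9% of all genes were, and 2 higher and 2 lower at day 21 under each factor. Summed endothelial markers (3 of 4 in the table) were 151 and 93.5 CPM in NT2-0, 68.0 and 62.6 in RA-21, and 362 and 213 in BMP-21, with CDH5 at 0 in 1 library of each day 21 group. Summed epithelial markers were 1477 and 1736 CPM, 2369 and 2876, and 3801 and 3809 in these groups. KRT8 held most of these sums, at 3119 and 3174 CPM in BMP-21, and EPCAM was at 211 and 197 CPM in NT2-0, 22.8 and 25.6 in RA-21 and 11.5 and 9.45 in BMP-21. Of the 4 epithelial markers, 0 were higher and 1 lower in RA-21, and 1 and 1 in BMP-21. Summed Schwann and glial markers were 82.6 and 71.1 CPM, 6.93 and 9.12, and 8.62 and 5.90.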

How the data were processed

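The deposited counts are whole numbers per gene for 14 libraries (total RNA). The submitters' processing notes name STAR, featureCounts, DESeq2 and hg19, without roles or versions. The deposited RPKM values divide by the whole gene span for 88.0% of 10936 genes (within 1%), so the authors' counts may include intronic reads, which inflates genes with long introns. Below 20, 66.0% to 73.5% of counts were even, as when both mates are counted, so depth overstates the number of fragments. Of 25952 identifiers, 25214 matched a reference name.

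Genes were filtered with filterByExpr (minimum count 10; 19142 genes kept, with 99.99% of counts), scaled by TMM (factors 0.918 to 1.148) and tested with edgeR 4.0.16 (R 4.3.3; quasi-likelihood F test, all 14 libraries, 7 residual and 3.08 prior degrees of freedom). P-values were adjusted by Benjamini-Hochberg over all genes, and the SE is the size of the log2 fold change over the root of F. CPM here uses the TMM-scaled library sizes, while shares of reads use the counts as deposited. Tables and plots used Python 3.11.15, pandas 2.3.3, NumPy 2.4.6 and matplotlib 3.10.9.

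Alternatives were RLE size factors, library size alone, no filter, DESeq2 1.42.0, a replicate block, only the groups compared, each of the 14 libraries left out, and, added after seeing the data, no BMP-10 libraries. Deviations of same-numbered libraries correlated at -0.34 to 0.15 (21 pairs of groups, median 0), so equal numbers were not treated as pairs. The titles' replicate numbers were used for RA-21, whose descriptions carry others.

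Members, gene lists and markers were chosen with earlier results of these data known. Values in every library are printed for genes with a group mean of at least 50 CPM and for genes on which small counts turn. From each of 3 pathway lists, the 4 largest called changes at day 21 were named, and from marker lists up to 4 genes. Features of the protein chains were planned and not analysed here.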

Additional observations from a re-analysis of the deposited data

Results flagged for a closer look

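In the test of whether the change from day 5 to day 21 differed between the factors, 3 collagen genes were called, where 314 of 19142 genes (1.64%) were. COL19A1 stood out with a difference of 4.60 ± 0.81 on the log2 scale (adjusted p = 0.026, edgeR): it was higher at day 21 than day 5 in both RA libraries and lower in both BMP2 libraries, and the call was lost without any library of RA-5, RA-21, BMP-5 or BMP-21. COL27A1 differed by 3.18 ± 0.60 (adjusted p = 0.034), with a call lost without either library of NT2-0, RA-21, BMP-5 or BMP-21 or without RA-5 replicate 2. COL14A1 differed by -2.48 ± 0.46 (adjusted p = 0.032), with a call lost without any library of RA-5, RA-10, RA-21, BMP-5 or BMP-21.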

How the results depend on the processing

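With 2 libraries a group, the number of collagen genes called depended on which libraries and groups shared the estimate of spread. Leaving out 1 library at a time gave 3 to 16 (RA-5 against NT2-0), 3 to 19 (RA-10), 15 to 27 (RA-21), 13 to 33 (BMP-5), 20 to 29 (BMP-10) and 25 to 34 (BMP-21); 7 to 29, 6 to 26 and 5 to 19 for RA against BMP2 at days 5, 10 and 21; and 4 to 19 (RA-21 against RA-5), 0 to 22 (BMP-21 against BMP-5) and 0 to 7 (the interaction). With DESeq2 the counts were 16 (RA-5), 30 (RA-5 against BMP-5), 22 (BMP-21 against BMP-5) and 7 (interaction), and without both BMP-10 libraries 16, 29, 22 and 7. Fitting only the groups compared gave 14 (RA-5), 36 (RA-21), 6 (BMP-10), 1 (RA-10 against BMP-10) and 7 (interaction); the cause was not tested. All other counts under these settings were within 1.5 times those reported.

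With the replicate number as a block, the counts in the same order were 7, 13, 23, 28, 28, 31, 17, 18, 16, 16, 11 and 3, all within 1.5 times. Of 219 called collagen values, 1 was lost with RLE size factors, 7 with library size alone, 4 with no filter, 13 with the block, 43 of 218 with only the groups compared, 0 with DESeq2 and 0 of 172 without BMP-10; 0 changed sign. Library size alone moved the median of all genes by up to 0.23. Uncalled values changed sign without 1 library: COL26A1 in BMP-21 (-0.25 to 0.14; 0.05 without NT2-0 replicate 1), COL6A6 in RA-21 against BMP-21 (-0.02 to 1.24), and, in RA-21 against RA-5, COL1A1 (-0.92 to 1.10) and COL2A1 (-0.22 to 0.60). Depth limits the genes under 1 CPM, such as COL6A5 and COL19A1 at day 0.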
